A study of Mus musculus with 2 samples.

Results

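Aldh1l1 and 5 enzymes that work beside it in folate metabolism were followed in single-cell RNA sequencing of mouse tumours. The 6 genes, Aldh1l1, Aldh1l2, Mthfd1, Mthfd2, Shmt1 and Shmt2, were matched by symbol to the feature list, where each was found once among 34290 features. Aldh1l1 and its partners were chosen by their summed UMIs (unique molecular identifiers, counted RNA molecules) in these libraries, seen in earlier results, so their levels and ratios are given as a description. The tumours came from the mouse colorectal cancer line MC38 and were taken 21 days after engraftment. The TMEM16F KO group was tumour tissue from MC38 cells lacking TMEM16F, a lipid scramblase encoded by Ano6, and the vector control group was tumour tissue from MC38 cells with a vector. The mice of both groups were otherwise untreated. The knockout was made in the grafted cells. The labels and the design text used here do not state the strain, age and number of the host mice, or whether the knockout line was a single clone. The design text speaks of tumour-infiltrating lymphocytes, although macrophage-like cells were the largest class in both libraries. With 1 library for each group there was no replicate to set a difference against. No test was run, and every interval below is a 95% interval for counting error alone.

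Folate carries single carbon units between pathways. Serine hydroxymethyltransferases move a carbon from serine onto folate, Shmt1 in the cytosol (and nucleus) and Shmt2 in mitochondria. Mthfd2 oxidises the loaded folate inside mitochondria, Mthfd1 converts the same forms in the cytosol, and the products feed purine and thymidylate synthesis. Aldh1l1, the cytosolic 10-formyltetrahydrofolate dehydrogenase, removes the carbon as CO2 and so returns free folate, and Aldh1l2 is its mitochondrial relative. Aldh1l1 is best known from liver and from astrocytes, whereas Mthfd2 is known from embryos, tumours and activated T cells.

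The promoters of 3 members are shown because Aldh1l1 had the highest ratio between the libraries of any member, and Shmt1 and Mthfd1 the lowest of those with at least 50 UMIs. RefSeq promoter sequences of build GRCm38.p6, running from 250 bases before to 50 bases after a gene start, matched 5 of the 6 members. Each is printed 5′ to 3′ on the strand of its gene, with capitals at matches, on either strand, to the CCAAT box (CCAAT), the GC box (GGGCGG) or the E2F core (TTCGCGC or TTGGCGC). A match on the other strand reads as its reverse complement. The Aldh1l1 window lies at chr6:90550543-90550842 on the plus strand, the Shmt1 window at chr11:60811216-60811515 on the minus strand and the Mthfd1 window at chr12:76254982-76255281 on the plus strand. The RefSeq start of Aldh1l1 lies inside the longer gene span of GENCODE given below.
Aldh1l1: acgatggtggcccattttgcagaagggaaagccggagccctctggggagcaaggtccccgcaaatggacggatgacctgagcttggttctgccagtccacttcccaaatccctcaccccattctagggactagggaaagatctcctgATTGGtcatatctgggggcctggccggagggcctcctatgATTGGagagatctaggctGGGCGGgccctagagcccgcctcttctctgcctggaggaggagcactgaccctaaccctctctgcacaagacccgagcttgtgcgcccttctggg
Shmt1: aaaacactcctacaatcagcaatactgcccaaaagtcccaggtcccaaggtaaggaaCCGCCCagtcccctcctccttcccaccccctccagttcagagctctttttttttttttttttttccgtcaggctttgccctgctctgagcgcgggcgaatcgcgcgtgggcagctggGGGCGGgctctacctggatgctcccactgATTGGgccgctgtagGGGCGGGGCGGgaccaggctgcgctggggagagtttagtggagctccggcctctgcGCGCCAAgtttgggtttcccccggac
Mthfd1: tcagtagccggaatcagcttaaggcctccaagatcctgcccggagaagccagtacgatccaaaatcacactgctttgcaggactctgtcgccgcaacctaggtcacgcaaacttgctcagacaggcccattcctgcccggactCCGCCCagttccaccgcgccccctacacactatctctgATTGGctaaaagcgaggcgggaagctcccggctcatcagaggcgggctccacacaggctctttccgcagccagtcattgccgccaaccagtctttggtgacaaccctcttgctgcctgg
Aldh1l1 held 2 CCAAT matches and 1 GC box, Shmt1 held 1 CCAAT match, 4 GC boxes and 1 E2F core, and Mthfd1 held 1 CCAAT match and 1 GC box. A pair of the GC boxes of Shmt1 overlap. Of 32851 promoters of the same length, 37.4% held CCAAT, 35.7% held GGGCGG and 3.89% held an E2F core as spelled here. These are matches of letters only, and no binding was measured.

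In mm10 coordinates of GENCODE M21, Aldh1l1 spans chr6:90486427-90600203 on the plus strand, with an antisense gene, Gm15756, that had 1 UMI in each library. On its own strand Aldh1l1 overlaps Gm45901, with 0 UMIs in both libraries, and Gm44236. Shmt1 (chr11:60788104-60811718, minus strand) overlaps Smcr8, and Shmt2 (chr10:127517123-127522444, minus strand) overlaps Ndufa4l2, each on the other strand. Aldh1l2 spans chr10:83487450-83534140 and Mthfd2 chr6:83305691-83325908, both on the minus strand, and Mthfd1 chr12:76255298-76319803 on the plus strand. On the other strand Mthfd1 overlaps Gm47525 (0 UMIs in TMEM16F KO and 8 in vector control), Gm34868 (5 and 16) and Gm47526. Aldh1l2 overlaps D10Wsu102e on the other strand, and Mthfd2 overlaps Gm43890 on its own strand. Gm44236, Gm47526, D10Wsu102e and Gm43890 were not found by symbol among the features. Whether the authors' counting used strand is not stated in what was used here, so reads in such overlaps are uncertain.

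In total 49777630 UMIs from 5993 barcodes were deposited for TMEM16F KO, and 46338994 UMIs from 5253 barcodes for vector control. Of these 11246 barcodes 10716 were kept here, 5688 of TMEM16F KO and 5028 of vector control, beside 10782 cells and 14 cell types in the design text. The libraries shared 10 barcode sequences. Kept cells had a median of 5995 UMIs in TMEM16F KO and 6019.5 in vector control, and 14.6% against 20.5% of them had under 2000 UMIs. Cells were placed in classes by marker UMIs, and a class is named after its markers with "-like". Only the 10 classes that reached 50 cells in both libraries are used below, and 1283 kept cells were given no class. A list of tumour or epithelium markers was also scored, but no kept cell was classed by it. Stroma-like cells had a median of 8991.5 UMIs in TMEM16F KO and 24069 in vector control. Whether they include grafted MC38 cells was not tested. Ano6 had 33.3 CPM (UMIs per 1000000 UMIs of the same cells) in all kept TMEM16F KO cells and 28.7 CPM in vector control cells, and in stroma-like cells 41.8 against 64.3 CPM. Ano6 cannot check the labels here, because host cells carry the gene and the counted 3′ end may lie outside the deleted part.

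Aldh1l1 was the member that differed most between the libraries. Its RNA summed to 608 UMIs, or 13.3 CPM (12.2 to 14.4), over all kept TMEM16F KO cells and to 60 UMIs, or 1.39 CPM (1.06 to 1.80), over all kept vector control cells. The ratio of TMEM16F KO to vector control was 9.50 (7.28 to 12.6). At least 1 Aldh1l1 UMI was seen in 522 TMEM16F KO cells (9.18%, 8.44 to 9.96, Clopper-Pearson) and in 58 vector control cells (1.15%, 0.877 to 1.49). After each cell was thinned to 2000 UMIs, the shares were 2.26% of 4858 TMEM16F KO cells and 0.225% of 3999 vector control cells, with 830 and 1029 shallower cells left out. No cell held more than 4 Aldh1l1 UMIs in TMEM16F KO or more than 2 in vector control, so the RNA was spread thinly over many cells.

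Across all genes, few ratios were as high. Of 13891 genes with at least 50 UMIs over both libraries, 12.2% had a ratio past a fold of 1.5 either way, 5.46% as higher and 6.72% as lower in TMEM16F KO. Of the 5 members with that many UMIs, Aldh1l1 was past the fold as higher and Mthfd1 and Shmt1 as lower, and since the members were chosen knowing this contrast nothing is read from that count. Aldh1l1 had the 10th highest ratio. The 9 genes above it were the immunoglobulin constant genes Iglc1, Iglc2 and Ighg1 and 6 genes known from vessel walls, Sparcl1, Plvap, Emcn, Vwa1, Esam and Myh11. Only the 3 immunoglobulin genes among them had at least 200 UMIs, and reads of near-identical immunoglobulin genes such as Iglc1 and Iglc2 may be split between them. The TMEM16F KO library held 7 endothelium-like cells against none in vector control, and 5 against 3 plasma-like cells.

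**Figure D1:**
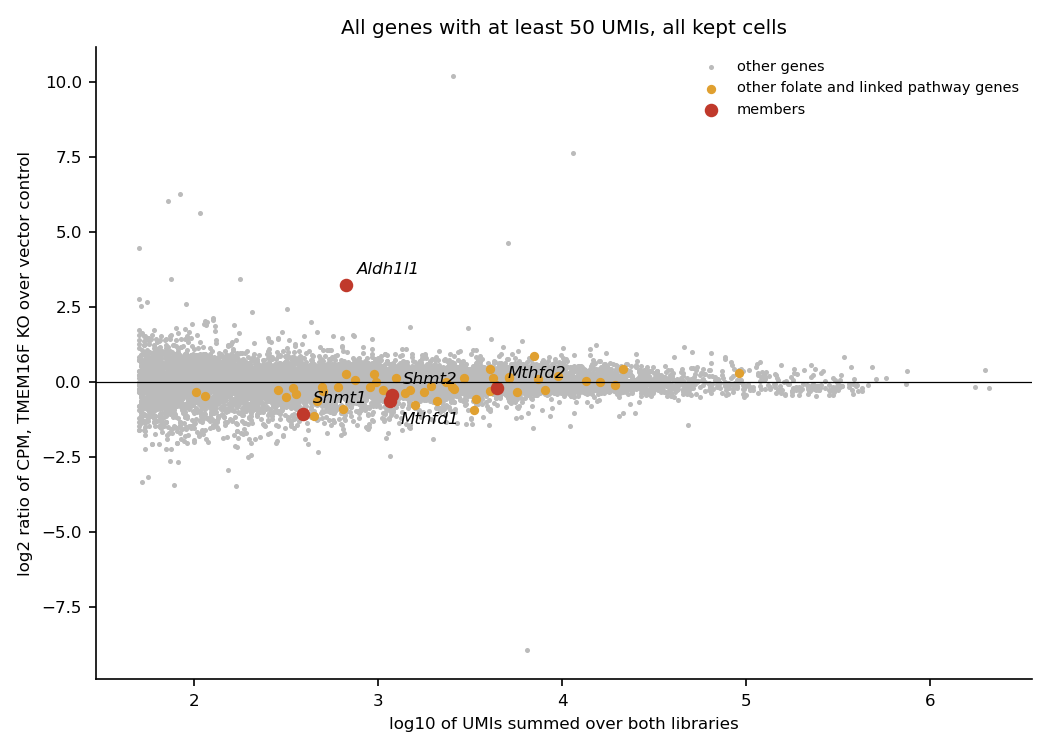
Each point is a gene with at least 50 UMIs over both libraries, placed by the log10 of its summed UMIs and by the log2 ratio of its CPM, TMEM16F KO over vector control, with the members in red and other folate and linked pathway genes in orange. Aldh1l1 stands at a log2 ratio of 3.25, above most genes of similar abundance, while Mthfd1, Mthfd2, Shmt1 and Shmt2 lie below 0 and Aldh1l2 had too few UMIs to be drawn.

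The higher Aldh1l1 level was found in most cell classes. Macrophage-like cells, named for C1q, Apoe and related genes, held 357 Aldh1l1 UMIs in TMEM16F KO (15.2 CPM, 13.6 to 16.8) and 46 in vector control (1.97 CPM, 1.44 to 2.63), a ratio of 7.68 (5.64 to 10.7). This was the third highest ratio of 11779 genes in that class, where 11.7% of genes were past a fold of 1.5, 6.60% as higher and 5.11% as lower. As a mean over cells of each cell's CPM the ratio was 4.53. Monocyte-like cells had 17.1 CPM (44 UMIs) in TMEM16F KO against 0.423 CPM (1 UMI) in vector control. Phagocytes that could not be placed between macrophage and monocyte had 18.4 CPM (41 UMIs) against 0.963 CPM (2 UMIs). In all 3 phagocyte classes the intervals of the libraries did not overlap.

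Dendritic cells had Aldh1l1 levels at or above those of macrophages in TMEM16F KO. Conventional DC-like cells had 18.6 CPM (24 UMIs, 11.9 to 27.6) in TMEM16F KO against 0.995 CPM (1 UMI) in vector control. Mature DC-like cells, marked by Ccr7 and Fscn1, had 33.2 CPM (17 UMIs, 19.4 to 53.2) in TMEM16F KO against 1.90 CPM (1 UMI) in vector control. The mature DC-like level was the highest of the 10 TMEM16F KO classes, and its interval overlapped those of the conventional DC-like, monocyte-like, unresolved phagocyte-like and Treg-like classes but not that of macrophage-like cells. Transcripts of other cells were present there too. Cd3e, a T cell gene, had 84.1 CPM in mature DC-like and 26.8 CPM in macrophage-like TMEM16F KO cells, and the 12 macrophage markers summed to 2357 CPM in the mature DC-like cells. The part of such transcripts in the Aldh1l1 level was not tested.

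Lymphocyte classes showed the same direction. CD8 T-like cells had 4.77 CPM of Aldh1l1 (31 UMIs, 3.24 to 6.78) in TMEM16F KO against 0.368 CPM (2 UMIs, 0.0446 to 1.33) in vector control. Treg-like cells, which carry Foxp3, had 12.4 CPM (14 UMIs) in TMEM16F KO and 0 UMIs in vector control, at least 3.83-fold higher when 3 UMIs are taken as the floor of the vector control class. Other T-like cells had 9.53 CPM (13 UMIs) in TMEM16F KO against 1.02 CPM (1 UMI) in vector control. NK-like cells had 6.52 CPM (11 UMIs) in TMEM16F KO against 5.15 CPM (4 UMIs) in vector control, a ratio of 1.27 (0.375 to 5.45), so no difference was detectable there at this depth. The intervals of the libraries overlapped in other T-like, NK-like and stroma-like cells. Stroma-like cells had 1 Aldh1l1 UMI in each library. Kept cells outside the 10 classes had 12.7 CPM (55 UMIs) in TMEM16F KO against 0.254 CPM (1 UMI) in vector control.

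Macrophage transcripts were also found in lymphocyte barcodes, at higher levels in TMEM16F KO. All 12 macrophage markers had UMIs in CD8 T-like cells of both libraries, summing to 1241 CPM in TMEM16F KO and 631 CPM in vector control, a ratio of 1.97. That ratio was 1.86 in Treg-like, 1.70 in other T-like, 1.72 in NK-like and 4.14 in stroma-like cells. In TMEM16F KO, C1qa in CD8 T-like cells stood at 5.86% of its macrophage-like level, Apoe at 5.62% and Lyz2 at 7.47%, whereas Aldh1l1 stood at 31.5%. In Treg-like cells these shares were 7.01% for C1qa and 81.7% for Aldh1l1. Stroma-like TMEM16F KO cells had C1qa at 10.3% and Aldh1l1 at 9.20% of the macrophage-like level, Aldh1l1 with 1 UMI. The 82 lymphocyte cells of TMEM16F KO with no UMI of C1qa, C1qb, C1qc or Apoe held 2 Aldh1l1 UMIs (7.47 CPM, 0.904 to 27.0), and the 127 such cells of vector control held 0. This set of cells was chosen after the data were seen, and its 2 UMIs are too few to set a level. The part of free RNA in the lymphocyte levels was not tested.

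**Figure D2:**
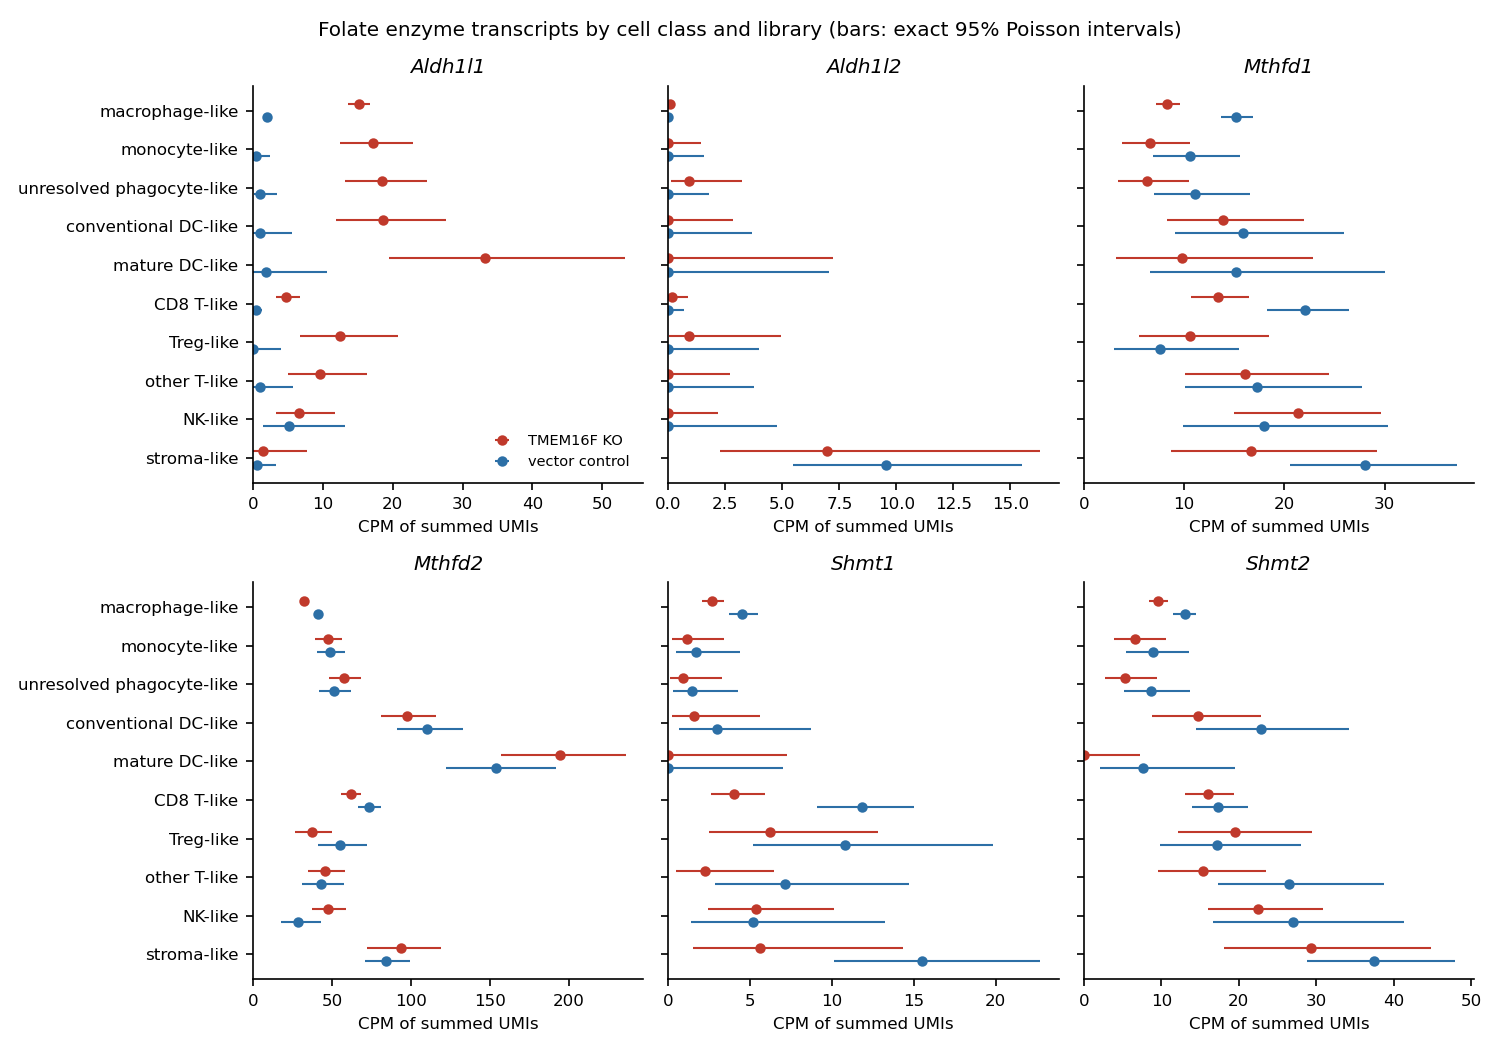
CPM of each member by class, with 1 panel for each member, TMEM16F KO in red above vector control in blue, and bars for exact 95% Poisson intervals. The Aldh1l1 points of TMEM16F KO lie right of those of vector control, with overlapping bars in other T-like, NK-like and stroma-like cells, Aldh1l2 is seen mainly in stroma-like cells, and Mthfd2 is highest in mature DC-like cells.

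The Aldh1l1 difference was of similar size in cycling and other cells, and was not seen at its measured genomic neighbours. A cell was called cycling if at least 3 of 20 cycling markers, none of them a folate gene, had a UMI. In cycling cells Aldh1l1 had 12.4 CPM in TMEM16F KO against 1.47 CPM in vector control, a ratio of 8.49 (5.81 to 12.8). In other cells it had 13.6 against 1.32 CPM, a ratio of 10.3 (7.04 to 15.7). Within 1 Mb of Aldh1l1 on chromosome 6, 12 genes had at least 50 UMIs, with ratios from 0.520 for Fbln2, a matrix protein gene, to 1.30 for Iqsec1. The nearest, Slc41a3, had a ratio of 1.22 (1.07 to 1.39) and Zxdc 1.01 (0.863 to 1.19).

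The genes whose levels over the 20 profiles (10 classes in 2 libraries) were most like those of Aldh1l1 were Ighg1 (Pearson r 0.868 on log2 of CPM plus 1), Iglc1 (0.864), Slc15a2, a peptide carrier gene (0.731), Usp18 (0.694) and Slc3a2 (0.679), of 11069 genes searched. The profiles share libraries, and they share depth and free RNA within a library. Ighg1 had 2544 UMIs over all kept TMEM16F KO cells and 2 in vector control. None of the 10 vector control classes had an Ighg1 UMI, and for Iglc1 only macrophage-like cells did (7 UMIs). Their r values therefore largely repeat the difference between the libraries by which Aldh1l1 was chosen. Iglc1 lay more evenly than Aldh1l1 over the 3 classes given next. In TMEM16F KO Iglc1 had 4.62 CPM in CD8 T-like, 4.12 CPM in macrophage-like and 4.18 CPM (3 UMIs) in stroma-like cells. Aldh1l1 had 4.77, 15.2 and 1.39 CPM in the same classes, the last on 1 UMI (0.0353 to 7.77). The part of free RNA in these levels was not tested. Both genes were highest in mature DC-like cells among the 10 TMEM16F KO classes. Iglc1 had 11.7 CPM (6 UMIs) there and Aldh1l1 33.2 CPM (17 UMIs).

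Aldh1l2 was nearly absent from immune cells. Over all kept cells it summed to 13 UMIs in TMEM16F KO (0.283 CPM, 0.151 to 0.485) and 19 in vector control (0.442 CPM, 0.266 to 0.690), a ratio of 0.642 (0.291 to 1.37). Stroma-like cells, which carry collagen genes and Sparc, held 5 of the 13 TMEM16F KO UMIs and 16 of the 19 vector control UMIs. Of these cells 46.0% were cycling in TMEM16F KO and 72.1% in vector control, so the class was not alike in the libraries. Their level was 6.97 CPM (2.26 to 16.3) in TMEM16F KO and 9.53 CPM (5.45 to 15.5) in vector control. Outside the stroma-like class 8 UMIs remained in TMEM16F KO and 3 in vector control, a ratio of 2.44 that runs the other way on 11 molecules. Macrophage-like cells had 2 UMIs in TMEM16F KO and 0 in vector control, although they held more UMIs than any other class. The closest profiles were those of Parva (r 0.978), Emp2 (0.969), Col5a2 (0.961), Bok (0.955) and Fermt2 (0.954), of which Col5a2 encodes a collagen chain. No profile but the stroma-like ones had more than 0.896 CPM of Aldh1l2. These r values therefore rest on the stroma-like profiles and say little beyond that class.

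**Figure D3:**
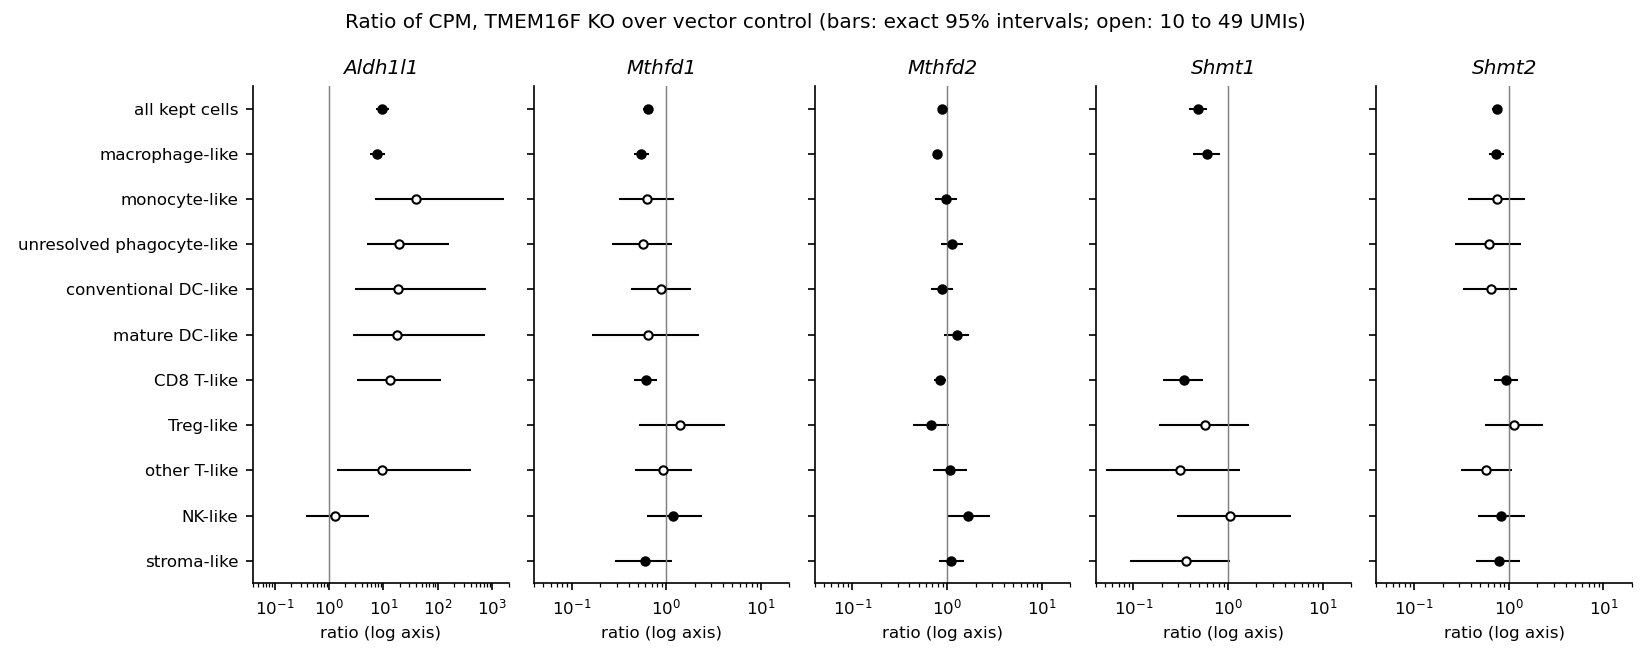
Ratio of CPM, TMEM16F KO over vector control, on a log axis that is wider for Aldh1l1, with exact 95% intervals, filled points for at least 50 UMIs and open points for 10 to 49; classes under 10 UMIs, or with 0 in a library, are not drawn. The Aldh1l1 ratios lie right of 1, with only the NK-like interval crossing it, while Mthfd1 and Shmt1 lie left of 1 in macrophage-like and CD8 T-like cells.

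The serine hydroxymethyltransferases were lower in TMEM16F KO, the cytosolic enzyme more so. Shmt1 had 2.90 CPM (133 UMIs, 2.43 to 3.44) over all kept TMEM16F KO cells against 5.95 CPM (256 UMIs, 5.24 to 6.73) in vector control, a ratio of 0.487 (0.392 to 0.603). Shmt2 had 11.6 CPM (531 UMIs) in TMEM16F KO against 15.4 CPM (663 UMIs) in vector control, a ratio of 0.751 (0.669 to 0.843). The intervals of these ratios did not overlap.

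Shmt1 reached 50 UMIs in macrophage-like and CD8 T-like cells, and its gap was larger in CD8 T-like cells, with overlapping intervals of the ratios. Shmt1 had 4.00 CPM (26 UMIs) in CD8 T-like TMEM16F KO cells against 11.8 CPM (64 UMIs) in vector control, a ratio of 0.340 (0.207 to 0.544). This ratio was the 15th lowest of 9412 genes in the class, where 11.5% were past a fold of 1.5, 6.17% as higher and 5.32% as lower. In macrophage-like cells Shmt1 had 2.68 CPM in TMEM16F KO against 4.51 CPM in vector control, a ratio of 0.594 (0.428 to 0.820). In stroma-like cells it had 5.58 CPM (4 UMIs) against 15.5 CPM (26 UMIs), a ratio of 0.360 (0.0914 to 1.04). NK-like cells had 5.34 CPM (9 UMIs) against 5.15 CPM (4 UMIs), and mature DC-like cells had no Shmt1 UMI in either library.

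Shmt2 differed between the libraries in macrophage-like cells, with 9.56 CPM in TMEM16F KO against 13.0 CPM in vector control and a ratio of 0.738 (0.618 to 0.880). In CD8 T-like cells it had 16.0 against 17.3 CPM, and the interval of the ratio, 0.694 to 1.24, includes 1. Shmt2 levels were highest in stroma-like cells, with 29.3 CPM in TMEM16F KO and 37.5 CPM in vector control, followed by NK-like cells with 22.5 and 27.0 CPM. Neighbouring classes in this order overlapped in their intervals. Shmt2 was at 0 UMIs in mature DC-like TMEM16F KO cells, which allows up to 5.87 CPM at 3 UMIs, and at 4 UMIs (7.61 CPM) in vector control.

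The share of the mitochondrial enzyme differed between the libraries in CD8 T-like cells beyond counting error. Shmt2 made up 80.0% (72.1 to 86.5) of the 130 Shmt1 and Shmt2 UMIs of CD8 T-like TMEM16F KO cells and 59.5% (51.4 to 67.2) of the 158 in vector control. In macrophage-like cells the shares were 78.1% (72.9 to 82.8) and 74.2% (69.7 to 78.4), with overlapping intervals. The shares mix cycling and other cells, and 24.9% of CD8 T-like cells in TMEM16F KO and 38.3% in vector control were cycling. Among cycling CD8 T-like cells Shmt2 had 49 and Shmt1 22 UMIs in TMEM16F KO, against 72 and 54 in vector control. Among other CD8 T-like cells they had 55 and 4 UMIs, against 22 and 10. UMIs come from 3′ ends and are not divided by length, so a share compares classes and libraries and not the 2 enzymes with each other.

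Mthfd1 and Mthfd2 were also lower in TMEM16F KO, by different amounts. Mthfd1 had 10.3 CPM (473 UMIs, 9.41 to 11.3) over all kept TMEM16F KO cells against 16.0 CPM (688 UMIs, 14.8 to 17.2) in vector control, a ratio of 0.645 (0.572 to 0.726). Mthfd2, the most abundant member by UMIs, had 46.6 CPM (2137 UMIs, 44.6 to 48.6) against 53.0 CPM (2280 UMIs, 50.9 to 55.2), a ratio of 0.879 (0.828 to 0.933) that lies inside the 1.5-fold limit. In macrophage-like cells Mthfd1 had 8.33 CPM in TMEM16F KO against 15.2 CPM in vector control, a ratio of 0.547 (0.457 to 0.653). In CD8 T-like cells it had 13.4 against 22.1 CPM, a ratio of 0.607 (0.455 to 0.806). In NK-like cells it had 21.4 CPM in TMEM16F KO (36 UMIs) and 18.0 CPM in vector control (14 UMIs), with a ratio of 1.18 (0.623 to 2.38).

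Mthfd2 separated the classes more than it separated the libraries. Mature DC-like cells had 194 CPM (99 UMIs, 157 to 236) in TMEM16F KO and 154 CPM (81 UMIs, 122 to 192) in vector control. In TMEM16F KO 1 such cell held 16 of the 99 UMIs. An Mthfd2 UMI was seen in 48.3% (35.2 to 61.6) of mature DC-like cells in TMEM16F KO and 61.4% (47.6 to 74.0) in vector control. Conventional DC-like cells had 97.4 and 110 CPM, stroma-like cells 93.4 and 84.0 CPM, and CD8 T-like cells 61.8 and 73.6 CPM in TMEM16F KO and vector control. The lowest class in TMEM16F KO was macrophage-like, with 32.3 CPM against 41.2 CPM in vector control, and the lowest in vector control was NK-like, with 47.5 CPM in TMEM16F KO against 28.3 CPM in vector control. Mature DC-like cells stood apart from conventional DC-like cells beyond their intervals in TMEM16F KO, whereas in vector control those intervals overlapped. Conventional DC-like and stroma-like cells overlapped in both libraries. Mature DC-like cells that were not cycling had similar levels, with 188 CPM in TMEM16F KO and 158 CPM in vector control. Mthfd2 made up 95.2% of the Mthfd1 and Mthfd2 UMIs of mature DC-like TMEM16F KO cells and 91.0% in vector control, against 79.5% and 73.0% in macrophage-like cells.

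Levels of 4 members were higher in cycling cells of both libraries, and Shmt1 stood out. Over all kept cells of TMEM16F KO, Shmt1 had 6.59 CPM in cycling cells and 1.16 CPM in other cells, 5.71-fold higher (3.86 to 8.62). In vector control it had 10.1 CPM in cycling and 1.70 CPM in other cells, 5.93-fold higher (4.15 to 8.68). Mthfd1 was 1.75-fold higher in cycling cells of TMEM16F KO and 1.96-fold in vector control, Shmt2 1.84-fold and 2.31-fold, and Mthfd2 1.55-fold and 1.64-fold. Aldh1l1 was at 0.912 (0.763 to 1.09) times the level of other cells in TMEM16F KO and at 1.11 (0.647 to 1.91) times in vector control. Cycling cells were deeper, with a median of 12568 UMIs against 5104.5 in other cells of TMEM16F KO and 13201 against 4214 in vector control, and a call by detected markers picks deeper cells.

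Tyms, thymidylate synthase, which uses the carbon that Shmt1 loads onto folate, shared the cycling pattern. It was 8.33-fold higher in cycling cells of TMEM16F KO and 7.71-fold in vector control. The genes with profiles most like that of Shmt1 over the 20 profiles were Lig1, DNA ligase 1 (r 0.924), Hmgb3 (0.920), Gspt1 (0.918), A630089N07Rik (0.915) and Ncl (0.912). For Shmt2 they were Eci1 (0.968), Actr6 (0.962), Mcm5 (0.940), Ube2srt (0.934) and Ahcy (0.932). For Mthfd1 they were translation genes, the ribosomal protein genes Rps28 (0.872), Rpl35a (0.861), Rpl35 (0.858) and Rpl37 (0.858) and the elongation factor gene Eef1b2 (0.867). For Mthfd2 they were Net1 (0.892), Tuba1a (0.888), Rbm17 (0.883), Gnb4 (0.874) and Smarcb1 (0.868).

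**Figure D4:**
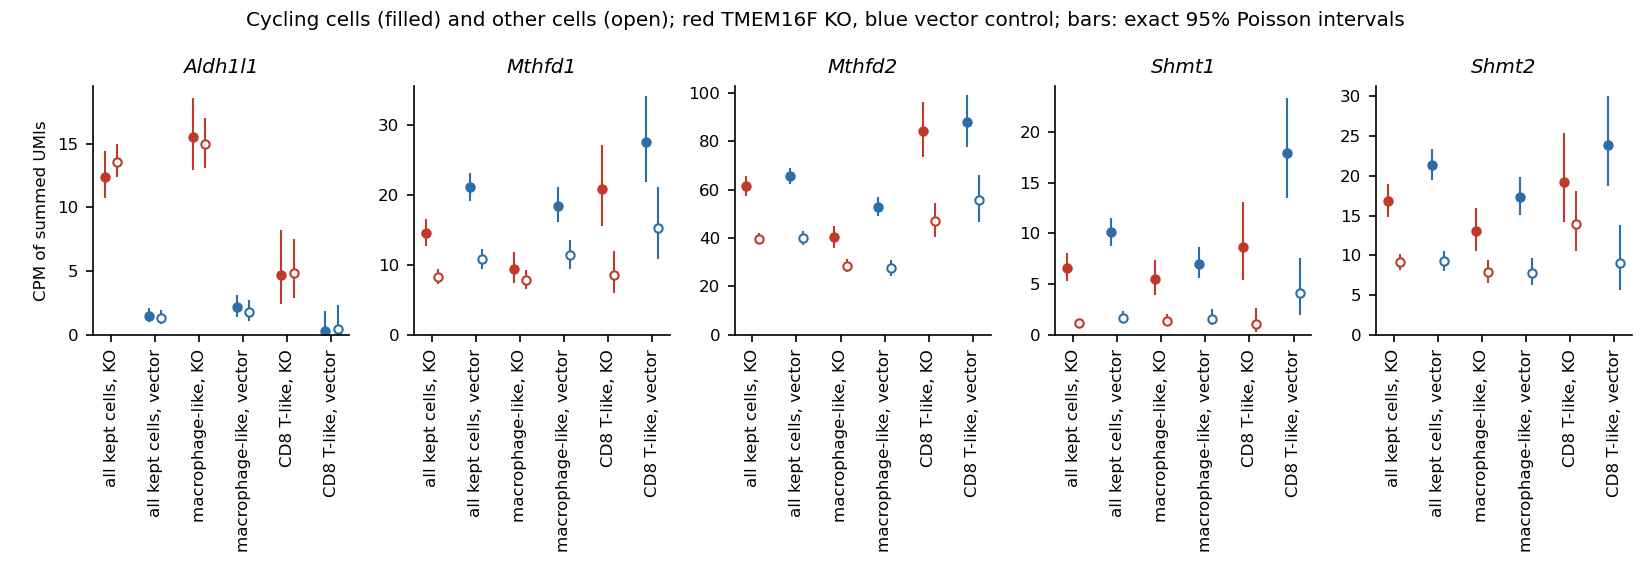
CPM of 5 members in cycling cells (filled) and other cells (open) of all kept, macrophage-like and CD8 T-like cells, TMEM16F KO in red left of vector control in blue, with exact 95% Poisson intervals. Shmt1 is several-fold higher in cycling cells of each set, Mthfd1, Mthfd2 and Shmt2 less so, and Aldh1l1 shows no such step.

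The libraries differed in their share of cycling cells, and over all kept cells the ratios of Mthfd1, Mthfd2, Shmt1 and Shmt2 were nearer to 1 within cycling and within other cells than over both. This did not hold in every class, as the values for macrophage-like and CD8 T-like cells show. Cycling cells made up 20.4% of macrophage-like cells in TMEM16F KO and 35.4% in vector control, and 24.9% and 38.3% of CD8 T-like cells, counted without thinning. Among cells that were not cycling, Mthfd2 had 39.6 CPM in TMEM16F KO and 40.0 CPM in vector control, a ratio of 0.990 (0.907 to 1.08). Shmt2 likewise had 9.12 and 9.25 CPM there, a ratio of 0.985 (0.818 to 1.19). Mthfd1 stayed lower, with 8.31 CPM in TMEM16F KO and 10.8 CPM in vector control and a ratio of 0.772 (0.644 to 0.927). Shmt1 had 1.16 and 1.70 CPM, on 36 UMIs in each library, and its ratio of 0.680 had an interval of 0.416 to 1.11.

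Among cycling cells Mthfd1 had a ratio of 0.691 (0.584 to 0.814), Shmt1 0.655 (0.510 to 0.835), Shmt2 0.785 (0.670 to 0.918) and Mthfd2 0.935 (0.860 to 1.02). Within CD8 T-like cells Shmt1 had 8.64 CPM in cycling TMEM16F KO cells against 17.9 CPM in vector control, a ratio of 0.482 (0.280 to 0.805). In CD8 T-like cells that were not cycling it had 1.01 CPM (4 UMIs) against 4.13 CPM (10 UMIs), a ratio of 0.245 (0.0562 to 0.851). Within macrophage-like cells the Shmt1 ratio was 0.783 (0.529 to 1.14) in cycling and 0.836 (0.420 to 1.69) in other cells, and both intervals include 1. The Mthfd1 ratio was 0.507 (0.384 to 0.663) in cycling and 0.688 (0.531 to 0.890) in other macrophage-like cells. The Shmt2 ratio was 0.752 (0.588 to 0.958) in cycling and 1.01 (0.757 to 1.34) in other macrophage-like cells. In CD8 T-like cells the Shmt2 ratio was 0.805 (0.548 to 1.17) in cycling and 1.53 (0.920 to 2.64) in other cells, and both intervals include 1.

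The wider pathway was read from 8 lists of 56 genes, of which 52 were matched and 47 had at least 50 UMIs. Over all kept cells 1 of the 47 was at least 1.5-fold higher and 7 at least 1.5-fold lower in TMEM16F KO, beside 5.46% and 6.72% of all 13891 genes. Their median log2 ratio was -0.17, against 0.02 for all genes. All measured members were lower in 3 lists, thymidylate and purine synthesis (8 of 8, median -0.33), serine synthesis (3 of 3, median -0.61) and glycine cleavage (3 of 3, median -0.21), where 47.3% of all genes were lower. Of the thymidylate and purine list 2 genes were past the fold. Dctd, dCMP deaminase, had 3.18 CPM in TMEM16F KO against 6.97 CPM in vector control, a ratio of 0.456 (0.372 to 0.558). Tyms had 25.9 against 49.1 CPM, a ratio of 0.528 (0.491 to 0.567). Adsl and Pfas, enzymes of purine synthesis, were at the other end of the list with ratios of 0.846 and 0.818.

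Of the 3 serine synthesis genes 2 were at least 1.5-fold lower, as were 6.72% of all genes. Psat1, phosphoserine aminotransferase, had 13.3 CPM in TMEM16F KO against 22.5 CPM in vector control, a ratio of 0.594 (0.536 to 0.658). Phgdh, which starts the pathway from glycolysis, had 18.7 against 28.4 CPM, a ratio of 0.657 (0.601 to 0.718), and Psph a ratio of 0.891 (0.823 to 0.964). Split by cycling over all kept cells, none of the 3 genes was past the fold in either state. The Phgdh ratio was 0.775 (0.696 to 0.861) in cycling and 1.06 (0.890 to 1.27) in other cells. For Psat1 the ratios were 0.711 (0.625 to 0.808) and 0.781 (0.650 to 0.939), and for Psph 0.993 and 0.960. In macrophage-like cells Psat1 had 9.56 against 15.7 CPM, whereas Phgdh was at a similar low level in both libraries, with 3.14 against 2.96 CPM.

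In the folate interconversion list Mthfs had 61.3 CPM in TMEM16F KO against 54.2 CPM in vector control, a ratio of 1.13 (1.07 to 1.20). Mthfd2l, a mitochondrial relative of Mthfd2, had 9.64 against 10.8 CPM, a ratio of 0.892 (0.781 to 1.02). None of the 6 folate carriers and retention genes was past the fold, 2 were higher and 4 lower, and their median log2 ratio was -0.15. The lowest ratios were 0.801 (0.531 to 1.20) for Slc46a1, the proton-coupled folate carrier, and 0.875 (0.704 to 1.09) for Fpgs, which holds folate in cells by adding glutamate. Folr2, a folate receptor known from tissue macrophages, had 49.7 CPM in TMEM16F KO against 45.2 CPM in vector control, and the hydrolase gene Ggh had 114 against 98.7 CPM. In the methionine cycle Ahcy, which clears S-adenosylhomocysteine, had 5.15 against 9.49 CPM, a ratio of 0.543 (0.460 to 0.638), while Mat2b and Mat2a had ratios of 1.11 and 1.08. None of the 3 glycine cleavage genes was past the fold over all kept cells. In CD8 T-like cells Gldc, the glycine decarboxylase, had 12.3 CPM (80 UMIs) in TMEM16F KO against 25.2 CPM (137 UMIs) in vector control, a ratio of 0.489 (0.366 to 0.649).

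The amino acid stress response list, genes known as ATF4 targets together with Atf4 itself, had 7 members higher and 5 lower over all kept cells, with a median of 0.04. Of all genes 52.7% were higher there. More members were higher than lower in each class but conventional DC-like (3 of 7 higher, median -0.06). The list had 9 of 11 higher in macrophage-like cells (median 0.14) and 7 of 8 in monocyte-like cells (0.31), beside 52.8% and 54.0% of all genes. In CD8 T-like cells 6 of 10 were higher (0.23) and in stroma-like cells 10 of 10 (0.51), beside 49.5% and 45.5% of all genes. Among macrophage-like cells that were not cycling 5 members were higher and 5 lower, and among cycling macrophage-like cells 6 and 3. Over all kept cells Slc7a11, the cystine carrier, had 102 CPM in TMEM16F KO against 55.1 CPM in vector control, a ratio of 1.85 (1.76 to 1.95). Ddit4, a brake on mTORC1, had 52.5 against 38.3 CPM, a ratio of 1.37. By class Ddit4 ran both ways. Its ratio was 1.66 in cycling and 1.72 in other macrophage-like cells. In CD8 T-like cells it was 0.781 (0.623 to 0.976) in cycling and 0.805 (0.659 to 0.985) in other cells. Over all kept cells Asns, asparagine synthetase, had 4.16 against 6.35 CPM, a ratio of 0.656 (0.543 to 0.792), and Chac1 1.09 against 1.49 CPM. Myc, whose product is known to activate several genes of this pathway, had 41.2 CPM in TMEM16F KO against 50.3 CPM in vector control, a ratio of 0.819 (0.769 to 0.871), and Mtor a ratio of 1.12.

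**Figure D5:**
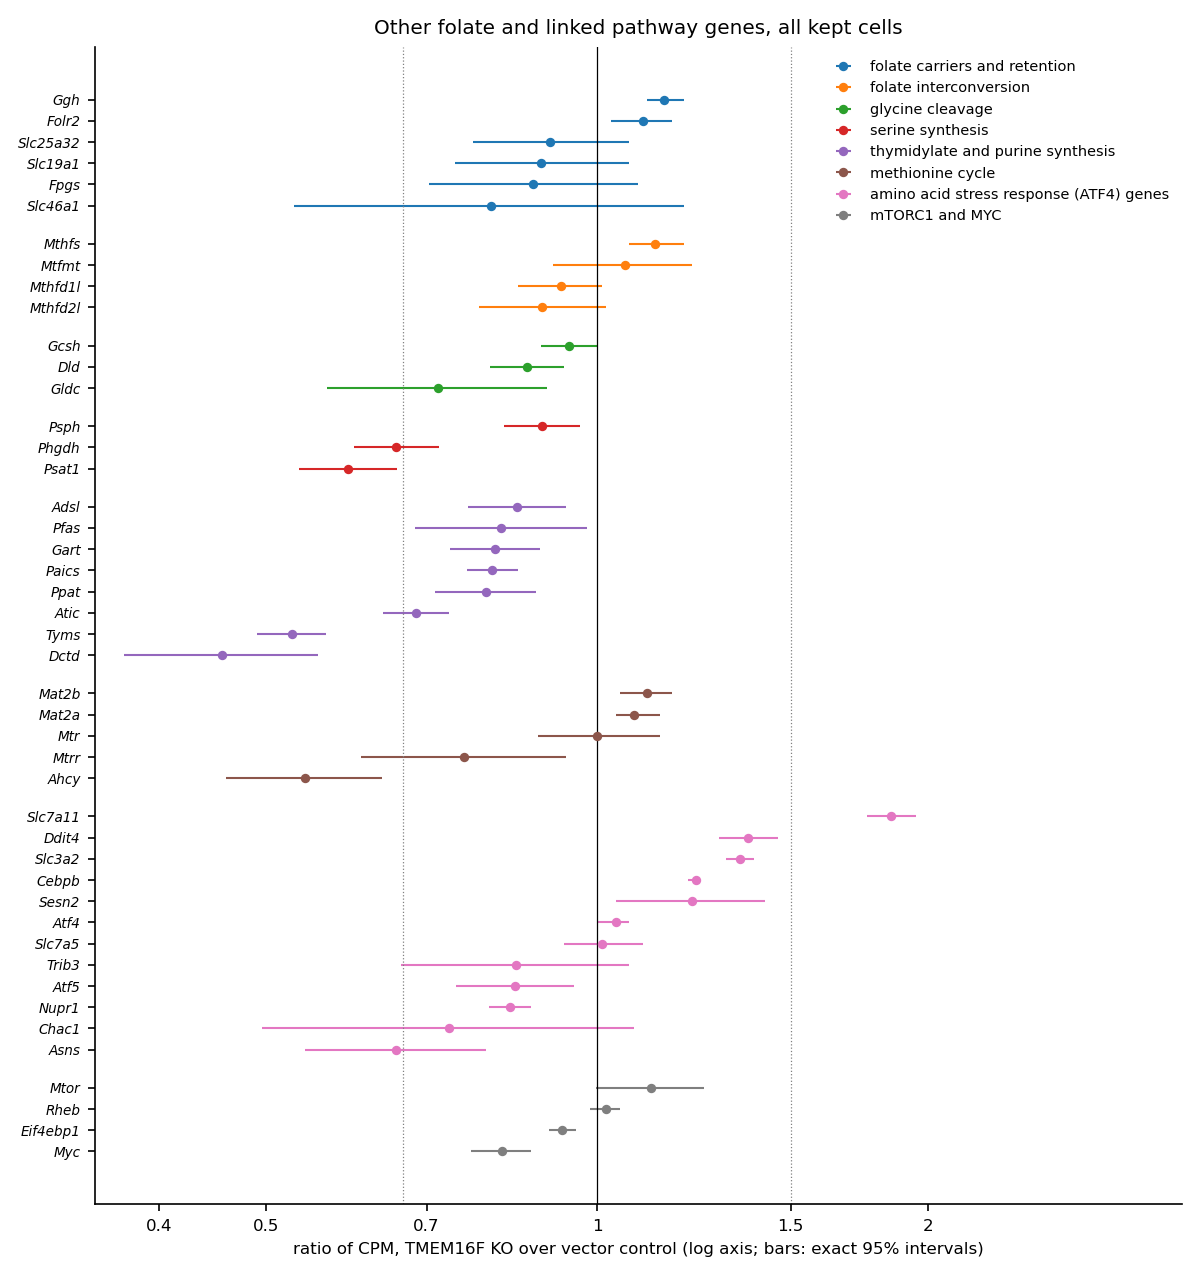
Ratio of CPM, TMEM16F KO over vector control, on a log axis for other folate and linked pathway genes in all kept cells, coloured by list, with exact 95% intervals and dotted lines at a fold of 1.5. All 8 thymidylate and purine synthesis genes lie left of 1, and Slc7a11, at 1.85, is the gene farthest right.

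Split by cycling, the count of pathway genes past the fold was smaller over all kept cells, as was the share of all genes past it, in cycling and in other cells. Among all kept cells that were not cycling, 1 of 46 measured pathway genes was at least 1.5-fold higher and 1 at least 1.5-fold lower, beside 4.45% and 2.37% of 12586 genes, and the median log2 ratio was -0.02 against 0.05 for those genes. Among cycling cells none of 46 was past the fold as higher and 3 were as lower, beside 4.81% and 5.75% of 12156 genes, with a median of -0.13 against -0.00. The thymidylate and purine synthesis list had a median of -0.04 in cells that were not cycling and -0.29 in cycling cells.

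The count was not smaller in every class once it was split. In macrophage-like cells taken whole, 2 of 46 measured pathway genes were past the fold as higher and 7 as lower, beside 6.60% and 5.11% of all genes of that class. Among cycling macrophage-like cells the counts were 2 and 2 of 42, beside 4.21% and 4.48% of all genes, and among other macrophage-like cells 4 and 5 of 41, beside 7.22% and 2.54%. In CD8 T-like cells taken whole, 3 of 41 were past the fold as higher and 6 as lower, beside 6.17% and 5.32%. Among cycling CD8 T-like cells the counts were 4 and 5 of 32, beside 6.39% and 4.49%, and among other CD8 T-like cells 4 and 4 of 32, beside 6.15% and 3.84%.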

How the data were processed

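Both libraries were 10x Genomics 3′ single-cell RNA libraries (v3.1 chemistry, per the labels' protocols). The values deposited are raw UMI counts for every gene in every barcode, and the headers of the files name Cell Ranger 8.0.0. The submitters' processing notes list the mm10 build and Seurat 3.1.1. No source used here names the annotation release, and 94.1% of the 34290 feature IDs are in GENCODE M21, which supplied coordinates.

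Barcodes under 200 genes, or with 20% or more mitochondrial UMIs, were dropped. The automatic threshold of Scrublet marked 0 barcodes in each library and so did not work. In its place the top scores were dropped, at 0.8% of a library per 1000 barcodes, 287 of TMEM16F KO and 221 of vector control. A class needed at least 3 detected markers of its list, a mean capped marker level of at least 0.15 and a lead of 0.08 over the next list. Of the unassigned cells 1020 had too low a score and 263 too small a lead. Those limits were set after the data were seen.

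Levels are CPM of UMIs summed over cells, with exact Poisson intervals. Ratios have exact conditional binomial intervals and shares Clopper-Pearson intervals, all at 95%, for counting error only. A count of 0 was given a floor of 3 UMIs. Named were all 6 members, up to 4 genes of each pathway list (the 2 highest and 2 lowest ratios), and the 5 genes nearest each member by Pearson correlation, and Gldc in CD8 T-like cells was chosen after its values were seen. Aars, Gars and Wars were not matched by symbol, and Ddit3 was on more than 1 feature. Some genes of the folate interconversion list are counted in the totals but not reported here. The members and lists were chosen with earlier results of these data known. The ratio and its interval were tested on simulated Poisson counts, the kind of count that the interval assumes. Those counts held no spread between libraries and no clustering of UMIs within cells, so that check covers neither. Alternatives changed the barcode filter, doublet removal, the CPM base, the mean over cells, scaling, the classes, the cycling limit, thinning, the fold and the minimum UMIs. Python 3.11.15, numpy 2.4.6, scipy 1.17.1, pandas 2.3.3, scanpy 1.11.5, leidenalg 0.10.2 and matplotlib 3.10.9 were used.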

Additional observations from a re-analysis of the deposited data

Results flagged for a closer look

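The ratio of Mthfd2, TMEM16F KO to vector control, ran in opposite directions in different cell classes when UMIs were summed. It was 1.67 (1.03 to 2.82) in NK-like cells, from 80 UMIs in TMEM16F KO and 22 in vector control. A single TMEM16F KO cell held 10 of those 80 UMIs, and as a mean over cells the NK-like ratio was 1.08. NK-like cells with an Mthfd2 UMI were 18.0% (13.3 to 23.6) in TMEM16F KO and 15.4% (9.06 to 23.8) in vector control. Thinned to 2000 UMIs they were 5.58% and 5.21%, and thinned to 1000 UMIs 3.06% and 2.97%, so a difference in these shares was not detectable at this depth. The Mthfd2 ratio was 0.785 (0.713 to 0.864) in macrophage-like and 0.839 (0.729 to 0.966) in CD8 T-like cells. The difference between the classes was not tested. The NK-like class held 233 cells in TMEM16F KO and 104 in vector control, and 14.1% of its 5318 genes were past a fold of 1.5. Among cycling NK-like cells the ratio was 2.00 (1.04 to 4.13) and among other NK-like cells 1.39 (0.668 to 3.18).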

How the results depend on the processing

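Over all kept cells, the member ratios moved in these settings and in none of the others tried. Taking the mean over cells of each cell's CPM gave 7.16 for Aldh1l1 (9.50 when UMIs were summed), 0.783 for Mthfd1 and 0.973 for Shmt2. Weighting cycling and other cells alike, an alternative chosen after seeing the data, gave 0.961 for Mthfd2, 0.659 for Shmt1 and 0.862 for Shmt2. Aldh1l2 turned round to 3.22 as a mean over cells and to 2.44 without the stroma-like class, also chosen afterwards. A fold of 2 left 1 of the 47 pathway genes in place of 8. By class, the mean over cells took the macrophage-like Aldh1l1 ratio to 4.53, against 7.68. Of 140 alternatives to the 21 ratios by class, 132 lay on the same side of 1. Leaving out Leiden cluster 6, which held 74 TMEM16F KO and 536 vector control barcodes of low UMI count, or cluster 12, which held 82 and 332 cycling macrophage-like cells, kept each member ratio within its interval, and both were chosen after seeing the data. The causes were not tested. No paired analysis was possible because each group is 1 library. Depth limits Aldh1l2, with 13 TMEM16F KO and 19 vector control UMIs in kept cells, and the ratios by class of Aldh1l1, which had 0 to 4 vector control UMIs in each class but macrophage-like, and of Shmt1.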
